A study of Mus musculus with 6 samples.

Results

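The 10 genes described here encode interleukin-2 (Il2), the 7 receptor chains that are private to or shared by few of the cytokines of its family (Il2ra, Il2rb, Il4ra, Il7r, Il9r, Il15ra and Il21r), the common gamma chain (Il2rg) and the kinase bound to that chain (Jak3). They were taken by gene name from a table of read counts on 54532 mouse genes, and all 10 were found and tested. RNA sequencing was performed on CD4+ T cells isolated from the spleens of male C57BL/6 mice aged 6 to 8 weeks and grown for 3 days under Th1 conditions. Both groups received plate-bound anti-CD3, anti-CD28, IL-12, an antibody that blocks IL-4, and recombinant IL-2, so IL-2 was present in the medium of every culture whatever the cells transcribed. The vehicle group (Th1, 3 libraries) received 0.1% DMSO, and the treated group (3 libraries) received 500 nM ALX-5407, which blocks GlyT1, a transporter of glycine. The sample labels give 72 h for both groups, the methods text gives a shorter exposure, and the counts cannot show which holds. The labels call the libraries biological replicates without saying whether each came from its own mouse. The p-values set group differences against the spread between these libraries, which may not be the spread between mice. Th0 libraries were not analysed here.

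IL-2 is made by activated T cells and acts back on them through a receptor built from several chains. IL2RA (CD25) raises affinity and does not itself signal, whereas IL2RB and the common gamma chain carry the signal through the kinases JAK1 and JAK3 to the transcription factor STAT5. The same gamma chain pairs with IL4RA, IL7R, IL9R and IL21R to form the receptors of IL-4, IL-7, IL-9 and IL-21, and IL15RA presents IL-15 to IL2RB and the gamma chain. In activated T cells IL-2 signalling is known to raise Il2ra and to lower Il7r.

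Of the 10 genes, 4 were higher and 3 lower with ALX-5407, and 3 did not pass the test (edgeR's quasi-likelihood test, Benjamini-Hochberg adjusted p-value under 0.05 over 15938 genes). IL-2 itself and the chains Il2ra, Il2rb and Il21r rose, whereas the common gamma chain Il2rg, Il7r and Jak3 fell. Among all genes tested, 47.7% passed in either direction, 24.5% higher and 23.2% lower, and 63.0% passed where the mean count reached 1000. The share among the 10 genes, 70.0%, is read against these. Only Il2 also passed the fold change threshold of the study (an absolute log2 fold change over 1, with which a gene is called a DEG), which 10% of genes passed, 3.36% higher and 6.68% lower. The median log2 fold change was 0.19 over the 10 genes and 0.0053 over all genes tested.

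**Figure D1:**
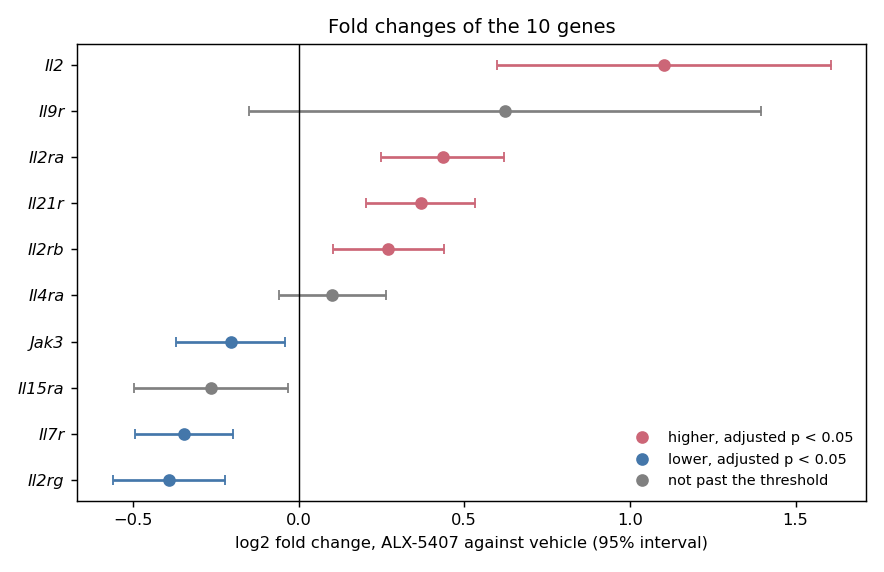
Log2 fold changes of the 10 genes, ALX-5407 against vehicle, from edgeR; points are estimates from 3 libraries in each group and bars are 95% intervals. Il2 lies farthest to the right at 1.1, Il2rg farthest to the left at -0.39, and the bars of Il9r and Il4ra cross 0.

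Total counts ranged from 30801753 to 36727788 per library, and values are given as CPM, counts scaled to library size, with library sizes corrected by TMM (trimmed mean of M-values). The T cell genes checked were present at a summed level of 2562 to 2676 CPM (scaled by library size alone) in vehicle libraries and 2346 to 2447 CPM with ALX-5407, with 5 of 9 lower and 1 higher. Markers of other cells moved with the groups as well. The 8 B cell markers summed to 60.4 to 66.5 CPM in vehicle and 77.4 to 80.0 CPM in ALX-5407 libraries (4 higher), most of it from Ighm. The 13 myeloid and dendritic markers summed to 16.5 to 21.2 and 6.22 to 7.23 CPM, nearly all from Cd68, and Siglech, S100a8 and S100a9 had no counts in any library. The 6 regulatory T cell markers summed to 176 to 182 CPM and 177 to 185 CPM, with 3 higher and 2 lower. The CD8 T cell (2 markers), NK and innate lymphoid (5), gamma delta T cell (3), mast cell and basophil (5), and erythroid and platelet (5) lists each summed to at most 16.9 CPM in any library. The part of these cells in the results was not tested, and in bulk RNA fewer expressing cells and less RNA per cell cannot be told apart.

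The 250 bases before the RefSeq start site (GRCm38.p6) are shown for Il2 and Il2ra, which rose, and for Il2rg, which fell, so that the upstream sequence of the cytokine and of receptor chains that moved apart can be read side by side. The motifs searched were GGAAA (the core bound by NFAT factors), TTCNNNGAA (bound by STAT factors) and TGANTCA (bound by AP-1) on both strands, and TATAAA on the gene's strand. Capitals mark their matches.
Il2 (chr3:37125955-37126204, - strand): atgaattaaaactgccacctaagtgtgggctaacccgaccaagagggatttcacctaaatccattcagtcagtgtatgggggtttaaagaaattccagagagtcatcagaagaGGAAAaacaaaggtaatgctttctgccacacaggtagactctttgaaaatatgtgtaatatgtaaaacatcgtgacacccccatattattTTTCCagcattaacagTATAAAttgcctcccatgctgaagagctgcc
Il2ra (chr2:11642542-11642791, + strand): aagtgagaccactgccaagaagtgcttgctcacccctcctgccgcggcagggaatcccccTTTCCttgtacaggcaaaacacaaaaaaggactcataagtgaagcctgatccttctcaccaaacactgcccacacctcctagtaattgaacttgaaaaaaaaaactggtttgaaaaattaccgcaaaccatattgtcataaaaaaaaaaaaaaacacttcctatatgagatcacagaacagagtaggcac
Il2rg (chrX:101268256-101268505, - strand): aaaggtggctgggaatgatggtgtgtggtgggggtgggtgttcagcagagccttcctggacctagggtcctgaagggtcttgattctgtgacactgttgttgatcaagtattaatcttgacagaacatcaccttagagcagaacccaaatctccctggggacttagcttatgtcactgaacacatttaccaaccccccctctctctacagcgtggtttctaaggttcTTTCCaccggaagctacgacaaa
The Il2 window held GGAAA 137 and, as its reverse complement, 47 bases before the start, and TATAAA 31 bases before it. The Il2ra and Il2rg windows each held the NFAT core in reverse complement only, 190 and 23 bases before the start. In the window of Il7r, which lies inside the longer GENCODE gene model and is not shown, TTCAGGGAA, a match to the STAT motif, lay 142 bases before the start and GGAAA 121 bases before it. The matches did not overlap each other. The NFAT core occurred in 55.6% of 32851 promoter windows of this length, the STAT motif in 7.02%, TATAAA in 7.59% and the AP-1 motif in 6.75%, the last being found among the 10 genes only in one window of Il15ra. Windows were present for 9 of the 10 genes, with Il2rb the exception.

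Il2 encodes the growth factor itself (chromosome 3, 37120523 to 37125959 in GRCm38, - strand, 4 exons). It was counted at 44, 48 and 35 reads in vehicle libraries and 109, 100 and 101 reads with ALX-5407. In CPM these were 1.35, 1.53 and 1.14 against 3.09, 2.68 and 2.88, so every treated library lay above every vehicle library. The groups did not overlap for 9 of the 10 genes, and for 55.5% of all genes tested. The mean rose from 1.34 ± 0.197 to 2.88 ± 0.203 CPM (SD, n = 3 each), a 2.15-fold change (log2 fold change 1.1 with a standard error, SE, of 0.238 and an edgeR adjusted p = 0.00114). Without the vehicle replicate 3 the log2 fold change was 0.98, just under the DEG threshold, with an adjusted p of 0.00443 in edgeR. Adad1 overlaps the end of the Il2 span on the other strand, shares no exon base with it and had 4 to 16 reads in any library. The genes with profiles most like that of Il2 over the 6 libraries were Cbx2, Angptl6 and Wars, whose centred log2 CPM differed from it by a root mean square of 0.0566, 0.0663 and 0.0691.

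**Figure D2:**
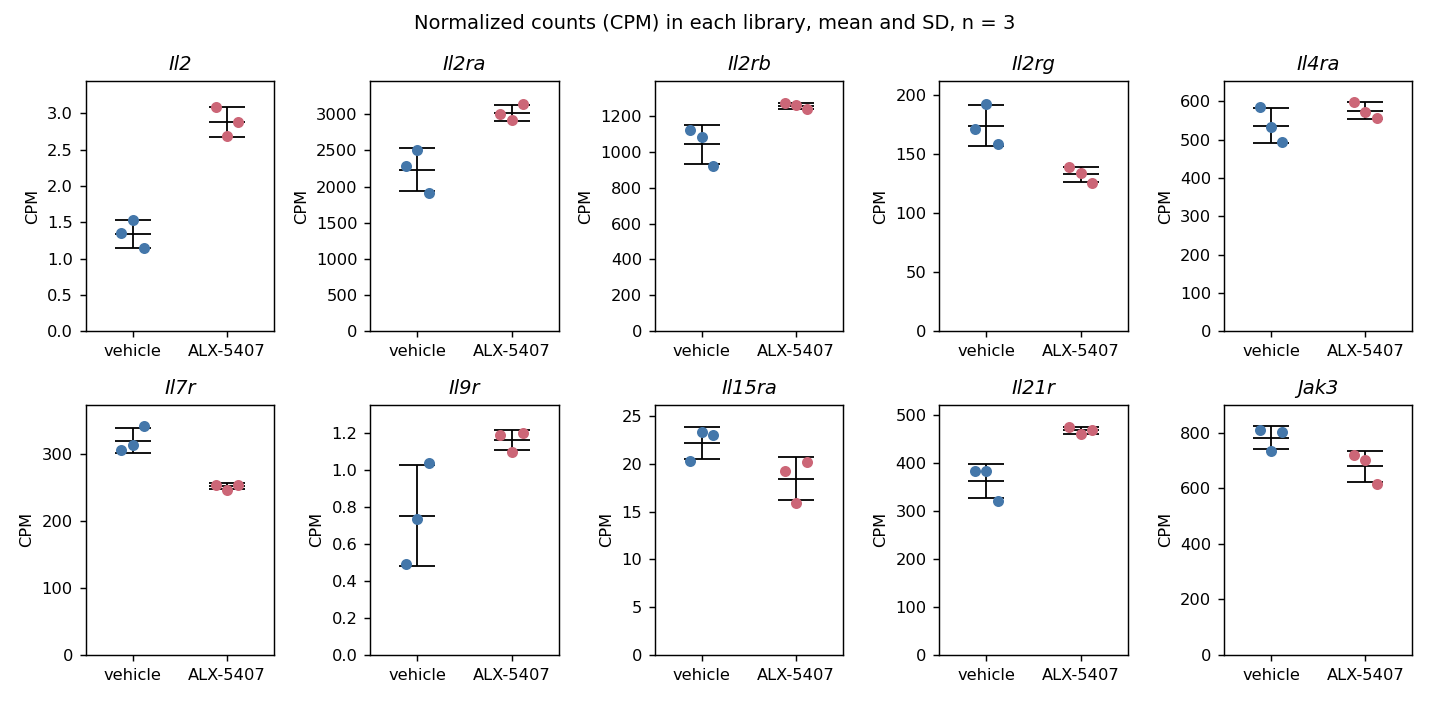
CPM of each of the 10 genes in each library (points), with the mean and SD of 3 libraries per group (black), on axes that start at 0 and differ between panels. Il4ra is the only panel in which vehicle and ALX-5407 libraries overlap, and the vehicle libraries of Il9r spread from 0.491 to 1.04 CPM.

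Il2ra encodes CD25, the chain that gives the IL-2 receptor its high affinity (chromosome 2, 11642807 to 11693193, + strand). It was among the most abundant transcripts of these cells, between the 12th and 39th most counted gene of each library. Its level was 2282, 2508 and 1914 CPM in vehicle and 2999, 2922 and 3143 CPM in ALX-5407 libraries, and the groups did not overlap. The mean rose from 2235 ± 299.9 to 3021 ± 112 CPM (SD, n = 3 each), a 1.35-fold change (log2 fold change 0.44, SE 0.0878, edgeR adjusted p = 0.000663). Without vehicle replicate 3, the lowest library, the log2 fold change was 0.32 (edgeR adjusted p = 0.000391). Foxp3, the transcription factor of regulatory T cells, which carry much CD25, rose in the same libraries from 12.8 ± 2.16 to 21.2 ± 2.30 CPM (SD, n = 3 each, edgeR adjusted p = 0.000204). Of the 6 regulatory T cell markers, Foxp3 among them, 3 were higher and 2 lower. Their sum was 176 to 182 CPM in vehicle and 177 to 185 CPM in ALX-5407 libraries (scaled by library size alone). The part of these cells in the Il2ra result was not tested. The Il2ra values are RNA levels. For CD25 protein, the study reported lower fluorescence by flow cytometry in Th1 cultures treated with ALX-5407. Gm37881, a transcript model on the same strand inside an intron of Il2ra, had 905 to 1075 reads per library and a log2 fold change of -0.17 (edgeR adjusted p = 0.149).

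Il2rb encodes the signalling chain shared by the receptors of IL-2 and IL-15 (chromosome 15, 78479256 to 78495271, - strand). It stood at 1121, 1084 and 918 CPM in vehicle and at 1272, 1258 and 1238 CPM in ALX-5407 libraries. The treated libraries were all higher and lay closer together. The log2 fold change was 0.27 (SE 0.0792, edgeR adjusted p = 0.00991), a 1.21-fold rise, and without vehicle replicate 3 it was 0.17 (edgeR adjusted p = 0.0243).

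Il2rg, the common gamma chain, on which every receptor of the family depends (chromosome X, 101264378 to 101268255, - strand), moved the other way. It was counted at 171, 193 and 159 CPM in vehicle and 139, 134 and 126 CPM in ALX-5407 libraries, which were all lower. The mean went from 175 ± 17.2 to 133 ± 6.35 CPM (SD, n = 3 each), with a log2 fold change of -0.39 (SE 0.0797, edgeR adjusted p = 0.00071). The gene model Gm20489 lies on the same strand and shares 728 exon bases with Il2rg, 30.5% of its exon length. How reads in shared bases were counted is not given in the sources used here, so the level of Il2rg is uncertain to that extent. Gm20489 itself had 1 to 7 reads in any library.

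Jak3, the kinase that binds the gamma chain (chromosome 8, 71676296 to 71690575, + strand), was slightly lower. Its values were 810.2, 735 and 802 CPM in vehicle and 720, 701 and 616 CPM in ALX-5407 libraries, without overlap. The log2 fold change was -0.20 (SE 0.0773, edgeR adjusted p = 0.0383). This call was lost without vehicle replicate 1 and without any single ALX-5407 replicate (adjusted p from 0.0506 to 0.184 in edgeR). Insl3, on the same strand, shares 404 exon bases with Jak3 (7.55%) and had a log2 fold change of -0.82 (edgeR adjusted p = 9.67e-05).

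Among the chains private to other cytokines, Il21r and Il7r passed the test in opposite directions. Il21r, the receptor chain of IL-21 (chromosome 7, 125603429 to 125633570, + strand), was at 383, 383 and 322 CPM in vehicle and 476, 462 and 469 CPM in ALX-5407 libraries. The log2 fold change was 0.37 (SE 0.0776, edgeR adjusted p = 0.000931), and without vehicle replicate 3 it was 0.27 (edgeR adjusted p = 0.00138). Il7r, which holds naive and memory T cells alive on IL-7 (chromosome 15, 9505788 to 9530176, - strand), was at 306, 314 and 342 CPM in vehicle and 255, 247 and 255 CPM in ALX-5407 libraries. Its log2 fold change was -0.35 (SE 0.0704, edgeR adjusted p = 0.000707), and neither gene overlapped between groups.

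The other private chains did not pass the test. Il4ra, the chain that binds IL-4 (chromosome 7, 125552120 to 125579474, + strand), was at 585, 532 and 493 CPM in vehicle and 599, 571 and 557 CPM in ALX-5407 libraries, and the groups overlapped. Its log2 fold change was 0.10 with a 95% interval from -0.06 to 0.26 (edgeR adjusted p = 0.295). Il15ra (chromosome 2, 11705290 to 11734317, + strand) was at 20.3, 23.3 and 23.0 CPM in vehicle and 19.3, 15.9 and 20.2 CPM in ALX-5407 libraries, the highest treated value just under the lowest vehicle value. Its log2 fold change was -0.26 with a 95% interval from -0.50 to -0.032 (edgeR adjusted p = 0.0572), and it passed the threshold in 6 of 15 alternative settings. Il9r, the chain that binds IL-9 (chromosome 11, 32187541 to 32200279, - strand), had only 16, 23 and 32 reads in vehicle and 42, 41 and 42 reads in ALX-5407 libraries. The log2 fold change was 0.62 with a 95% interval from -0.15 to 1.40 (edgeR adjusted p = 0.176).

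These calls depended in part on how libraries were scaled. With libraries scaled by the sum of counts divided by gene length, a choice added after the data were seen, the median log2 fold change of all genes moved to 0.18. On that scale the 4 genes that rose remained higher (log2 fold changes from 0.45 to 1.28), Il2rg remained lower (-0.21, edgeR adjusted p = 0.0305), Il4ra was called higher (0.28, edgeR adjusted p = 0.00413), and Il7r and Jak3 were not called (-0.17 and -0.028, adjusted p = 0.0836 and 0.79 from edgeR).

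Levels of different genes were compared within a library as counts divided by gene length, scaled so that each library had the same sum, as in TPM. In vehicle libraries Il2ra (1133 ± 126, SD, n = 3) stood above Il2rb (703 ± 60.9), Jak3 (424 ± 30.5), Il21r (316 ± 24.4) and Il4ra (259, from 244 to 282). Il2rg (212 ± 15.9) and Il7r (199.6 ± 16.0) followed and overlapped. Il15ra (14.5 ± 1.12), Il2 (3.39 ± 0.419) and Il9r (0.444 ± 0.17) lay far lower. Apart from Il2rg and Il7r, each neighbouring pair in this order was separated in all vehicle libraries. The place of Il2rg in the order is uncertain, because 30.5% of its exon bases are shared with Gm20489. With ALX-5407 the order was the same except that Il21r stood above Jak3, with ranges that did not overlap, and Il2rg and Il7r again overlapped.

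**Figure D3:**
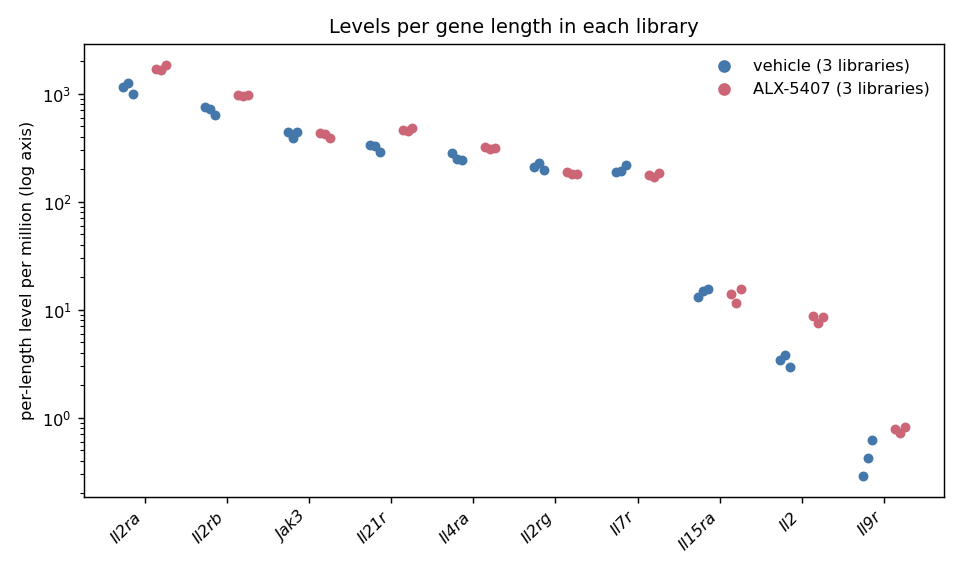
Per-length levels (on the TPM scale, log axis) of the 10 genes in each library, ordered by the vehicle mean. The order within a colour is the comparison the plot serves, from Il2ra at about 1133 to Il9r at 0.444 in vehicle libraries; the height of one colour against the other also carries the scaling of libraries.

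The other receptor chains were then set against the common gamma chain within each library, a ratio that does not depend on library scaling. The size of each ratio carries the uncertainty in the level of Il2rg from exon bases shared with Gm20489. Per length, Il2ra transcripts exceeded those of Il2rg by a ratio of 5.57, 5.43 and 5.02 in vehicle and 9.04, 9.08 and 10.4 in ALX-5407 libraries, a 1.78-fold increase. The ratio of Il2rb to Il2rg was 3.64, 3.12 and 3.21 in vehicle and 5.11, 5.21 and 5.46 with ALX-5407. Both ratios were thus higher in each treated library than in any vehicle library. The ratio of Il21r to Il2rg was 1.61, 1.42 and 1.45 in vehicle and 2.46, 2.47 and 2.67 with ALX-5407, and that of Il4ra to Il2rg went from 1.23 ± 0.131 to 1.72 ± 0.0341 (SD, n = 3 each), also without overlap. Il7r and Il2rg, in contrast, fell by similar amounts, with ratios of 0.948 ± 0.137 and 0.972 ± 0.0531 (SD, n = 3 each) that overlapped. Il15ra to Il2rg also overlapped (0.0686 ± 0.00768 and 0.0747 ± 0.0114), and Il9r to Il2rg went from 0.00212 ± 0.000918 to 0.00422 ± 0.000326 on few reads.

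Within the IL-2 and IL-15 receptors, the ratio of Il2ra to Il2rb went from 1.61 ± 0.111 to 1.81 ± 0.0866 (SD, n = 3 each), and that of Il15ra to Il2rb from 0.0208 ± 0.00333 to 0.0142 ± 0.00184. For Il2ra to Il2rb the groups all but touched, with the highest vehicle value and the lowest ALX-5407 value both 1.74 when rounded. Of the 9 ratios, 7 did not overlap between groups before rounding, that of Il2ra to Il2rb among them. Each of these had p = 0.1 in an exact two-sided permutation test, which is the smallest p that 3 libraries against 3 allow (0.129 after Benjamini-Hochberg adjustment over the 9 ratios). Most of the 9 ratios share the denominator Il2rg, which itself fell (log2 fold change -0.39), so they are not separate results. Ratios of other gene pairs were not computed. The 7 private or shared chains apart from Il2rg can also be read as shares of their sum. Il2ra held 43.1% ± 2.01 of it in vehicle and 47.3% ± 1.09 in ALX-5407 libraries, and Il7r 7.66% ± 1.23 and 4.84% ± 0.0268 (SD, n = 3 each). Il2rb held 26.8% ± 0.822 and 26.2% ± 0.649, a difference smaller than the spread between replicates.

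**Figure D4:**
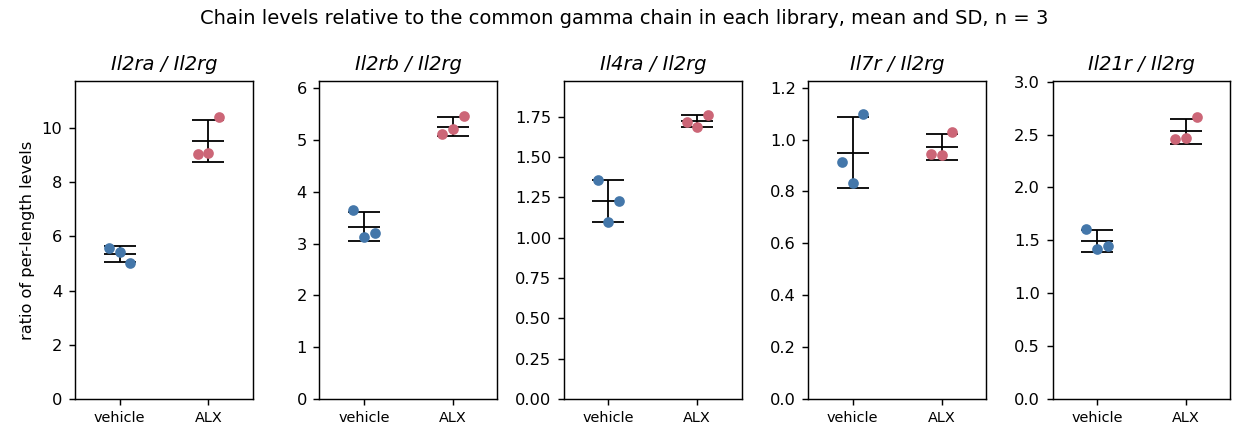
Ratio of the per-length level of 5 receptor chains to that of the common gamma chain Il2rg in each library (points), with mean and SD of 3 libraries per group; each axis starts at 0. The ALX-5407 libraries lie above all vehicle libraries for Il2ra, Il2rb, Il4ra and Il21r and among them for Il7r.

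Members of the family also lie side by side in the genome. Il2ra and Il15ra are neighbours on the + strand of chromosome 2, with 12096 bases between them, and had log2 fold changes of 0.44 and -0.26. Il4ra and Il21r are neighbours on the + strand of chromosome 7, with 23954 bases between them, and had 0.10 and 0.37. Il2 and Il21, the gene of the related cytokine IL-21, lie 96799 bases apart on the - strand of chromosome 3 with only Gm12532 between them, and had 1.1 and 0.35. The differences within these pairs were not tested. Among the other adjacent genes that were tested, Gtf3c1 beside Il21r was higher (0.49), Med12 beside Il2rg (-0.38), Fbxo18 beside Il15ra (-0.42), Unc13a beside Jak3 (-0.61), Capsl and Spef2 beside Il7r (-0.79 and -0.41), Snrnp25 beside Il9r (-0.50) and Tmprss6 beside Il2rb (-0.55) were lower, and Gm614, C1qtnf6 and B3gnt3 did not pass the test. Gm44876, antisense to Il4ra and sharing 571 of its exon bases (9.51%), had 7 to 21 reads per library.

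The other genes of the pathway were taken from lists compiled from general knowledge, with earlier results of these data known. Over all genes tested, 24.5% were higher and 23.2% lower, with a median log2 fold change of 0.0053. Where the mean count reached 1000, 63.0% passed in either direction. The list counts are read against these shares. Of 7 other ligands, including partners of the family such as Il13 and Tslp, 3 were expressed highly enough to be tested. Il21 rose from 97.9 ± 11.2 to 125 ± 9.14 CPM (SD, n = 3 each; log2 fold change 0.35, edgeR adjusted p = 0.0033). Il13, whose product uses the IL-4 receptor alpha chain, fell from 12.3 ± 2.69 to 4.61 ± 2.06 CPM (log2 fold change -1.42, edgeR adjusted p = 0.000123), and Il4 had a log2 fold change of -0.55 (edgeR adjusted p = 0.15). Il7 had no reads in any library, and Il9, Il15 and Tslp had at most 6.

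Of 10 JAK and STAT genes, 4 were higher and 4 lower (median log2 fold change -0.13), beside 24.5% higher and 23.2% lower among all genes tested. Jak1, whose product signals with JAK3 at the IL-2 receptor, rose by a log2 fold change of 0.24 (edgeR adjusted p = 0.00948), whereas Jak3 fell. Of the STAT5 genes, Stat5b had a log2 fold change of -0.23 (edgeR adjusted p = 0.0116; 0.0646 without ALX-5407 replicate 1) and Stat5a had -0.13 (edgeR adjusted p = 0.139; past the threshold without vehicle replicate 3, at 0.0282). Stat6, which serves IL-4 (-0.25), Stat3, which serves IL-21 (-0.61), and Stat4, which serves IL-12 (-1.16), were lower, and Stat2 (0.37), which serves interferons, was higher. With per-length scaling neither Stat5b (-0.05, edgeR adjusted p = 0.594) nor Stat6 (-0.07, edgeR adjusted p = 0.452) was called. Of 13 other cytokine receptor chains, 12 were tested, 3 were higher and 5 lower. Il12rb1 rose by 0.89, and Il1rl1 (-1.07), Il18r1 (-0.76) and Ifngr1 (-0.55) fell, the largest edgeR adjusted p among them being 2.59e-05. Of 16 adaptors and kinases, 15 were tested, 8 were higher and 3 lower (median 0.18), among them Pik3cd (0.76), Syk (0.86), Ptk2b (0.40) and, lower, Irs2 (-0.69).

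**Figure D5:**
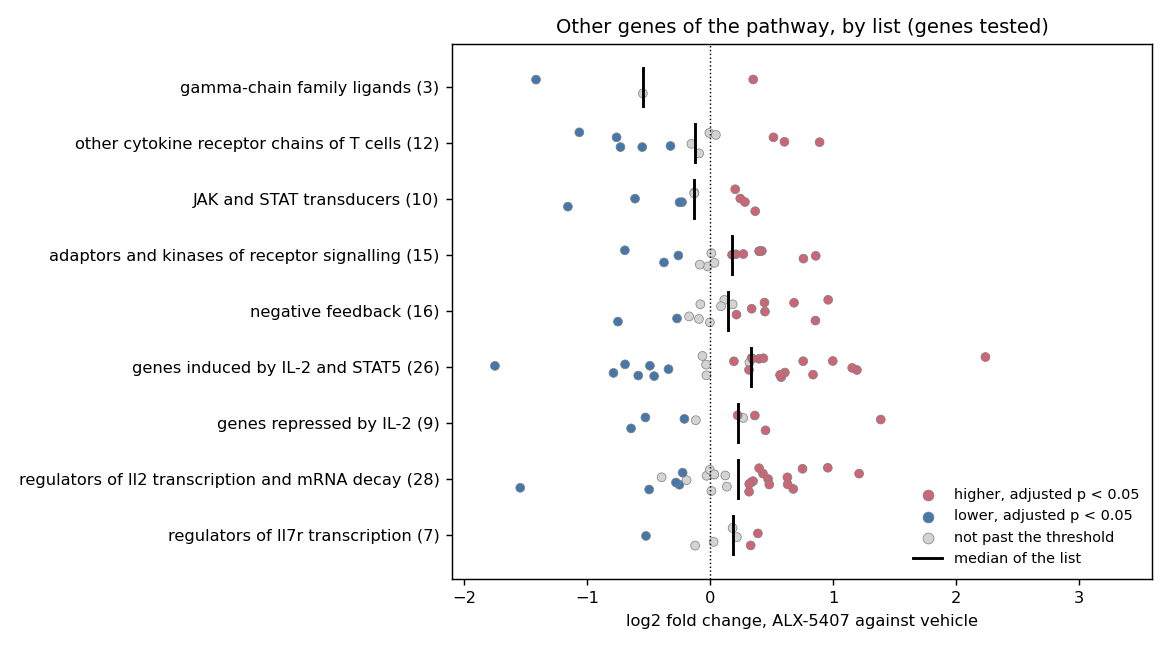
Log2 fold changes (horizontal axis, ALX-5407 against vehicle) of the tested genes of each list, with 1 point per gene, coloured by direction where the adjusted p-value was under 0.05, and the list median as a black line. Prdm1 lies farthest to the right at 2.24 and Il24 farthest to the left at -1.75, both in the list of genes induced by IL-2 and STAT5.

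Of 16 negative feedback genes, 7 were higher and 2 lower (median 0.15). The mitogen-activated kinase phosphatase Dusp5 (0.96) and the SOCS genes Socs2 (0.86) and Socs4 (0.45) rose, and the phosphatase gene Ptpn2, whose product acts on JAK1 and JAK3, fell by 0.75 on the log2 scale. Cish, the gene best known as an immediate STAT5 target and chosen after its value was seen, had a log2 fold change of 0.34 (edgeR adjusted p = 0.00114). Among 26 genes that IL-2 and STAT5 are known to induce, 15 were higher and 7 lower (median 0.33). Over all genes tested, 24.5% were higher and 23.2% lower (median 0.0053). Most genes of this list had a mean count of at least 1000, where 63.0% of genes passed in either direction, not counted apart by direction. The DEGs of the list of induced genes were Prdm1 (2.24), which encodes Blimp-1, a repressor of Il2, Cdk6 (1.16), Ccne1 (1.19, chosen after its value was seen) and, lower, Il24 (-1.75). The survival gene Bcl2 (1.00) lay at the threshold. Among 9 genes that IL-2 is known to repress, 4 were higher and 3 lower (median 0.22), with Klf2 (1.39), Foxo1 (0.45) and Tcf7 (0.36) higher and Ccr7 (-0.53) lower. Both lists held genes called in each direction, as did all genes tested, so this does not bear on IL-2 signalling, which was not tested.

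Of 28 regulators of Il2 transcription and mRNA decay, 14 were higher and 5 lower (median 0.23), beside 24.5% higher and 23.2% lower among all genes tested. Most genes of this list had a mean count of at least 1000, where 63.0% of genes passed in either direction. Directions were not counted apart at that level, so an excess of higher genes is not established. Nfatc1, an activator of Il2, went from 90.7 ± 6.88 to 176 ± 3.25 CPM and Egr1, another activator, from a mean of 105 to 244 CPM (n = 3 each; log2 fold change 1.21). Crem, whose product represses Il2, fell from 269.9 ± 16.0 to 92.4 ± 10.1 CPM (log2 fold change -1.55, edgeR adjusted p = 1.14e-09), whereas Prdm1 rose and Rc3h1, which encodes the mRNA decay factor Roquin-1, rose by 0.63. Of 7 regulators of Il7r, 2 were higher, Gfi1 (0.39) and Nr3c1 (0.33), 1 was lower, Runx3 (-0.52), and 4 did not pass the test. The part of these regulators in the fall of Il7r was not tested.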

How the data were processed

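RNA sequencing libraries of 6 cultures (3 vehicle, 3 ALX-5407) were analysed. The authors deposited raw counts per gene, without normalization or pooling. Per the labels, reads were processed with fastp, HISAT2 2.0.5 and featureCounts 1.5.0-p3 on mm10; the treatment of strand and of reads that map to several places is not given in the sources used here. The labels describe capture on poly-T beads and the methods text depletion of ribosomal RNA. Gene lengths in the deposited file equal the merged exons of GENCODE M21 for all 10 genes, as do their coordinates.

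Counts were analysed with edgeR 4.0.16 in R 4.3.3 (filterByExpr with a minimum count of 10 and total of 15, TMM, quasi-likelihood F test, Benjamini-Hochberg adjustment over 15938 genes). Standard errors came from the fold change and its F statistic, intervals from the same standard error at 95%. The biological coefficient of variation was 0.0978. Between replicates of a group, chi-square per degree of freedom was 5.65 to 22.4, more than sampling alone gives. The procedure was tested on simulated counts. Alternatives were other scalings and filters, DESeq2 1.42.0, limma-voom (limma 3.58.1), a replicate block and each replicate left out. Ratios used exact permutation tests in scipy 1.17.1. Up to 4 called genes with the smallest p-values were named per list, with Jak1, Stat5a, Stat5b and Stat6 always given, together with genes that overlap or adjoin the 10 genes and the 3 profiles nearest that of Il2 among genes with a mean of at least 50 counts. Some genes that this rule names are not reported here. The 10 genes and the lists were chosen with earlier results of these data known. The study named DESeq2 for this comparison.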

Additional observations from a re-analysis of the deposited data

How the results depend on the processing

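Il2, Il2ra, Il2rb, Il21r and Il2rg kept their direction and their call in 15 alternative settings each. Il2 ranged from 0.98 to 1.28 and Il2rg from -0.47 to -0.21 on the log2 scale. Il7r was called in 14 of the 15, Jak3 in 9, Il15ra in 6, Il4ra in 1 and Il9r in 0. Jak3 was not called with library sizes alone (log2 fold change -0.15, adjusted p = 0.125 in edgeR). Il15ra was called with DESeq2 size factors (-0.28), upper quartile factors (-0.32), a filter of 1 CPM (-0.29), the replicate block (-0.27), without vehicle replicate 1 (-0.33) and without ALX-5407 replicate 3 (-0.33). With 1 replicate left out, the number of DEGs among the 10 genes was 0 to 1.

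With per-length scaling, 1 of the 10 genes was called lower, and 2352 of all genes were, against 3695. Among the lists, the counts that moved by over 1.5 times were those of genes called lower among JAK and STAT genes (2), adaptors (1), feedback genes (1), genes repressed by IL-2 (1) and regulators of Il2 (2), and of regulators of Il7r called higher (5). Stat5a, not called in either case, changed sign to 0.0507 on the log2 scale, and neither Stat5b (-0.05) nor Stat6 (-0.07) was called. With library sizes alone, 1 feedback gene and 3 regulators of Il2 were lower and 4 regulators of Il7r higher. With upper quartile factors, 2 regulators of Il7r were lower. With 1 replicate left out, genes called lower ranged from 1 to 3 for feedback genes, 2 to 5 for regulators of Il2, 1 to 2 for regulators of Il7r, 1 to 2 for ligands and 1 to 3 for adaptors. The order of levels per length was the same for all 10 genes when scaled over protein-coding genes alone.

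Same-numbered libraries showed no clear pairing: their deviations from the group means correlated across genes at -0.0084, 0.00355 and 0.0635. With 3 libraries per group these values cannot exclude a pairing, and the labels do not state one. With the replicate block, 8 of the 10 genes were called (4 higher, 4 lower) and 7904 of all genes, against 7605, and 4 regulators of Il7r were higher. The causes of these changes were not tested. Il9r and Il2 rested on few reads, at most 109 in any library.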
